A study of Homo sapiens with 12 samples.

Results

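Tropomyosins 1 and 3 (TPM1, TPM3), the actin-binding protein MPRIP and the formin DIAPH1 are 4 genes of the actomyosin system. They were examined through every cassette exon event listed for them, where an event is a middle exon that a transcript carries or skips, read as 2 isoforms. The middle exon of each event was matched to annotated exons on the hg38 assembly, which gave 7 events of the 8712 listed in any library. Inclusion was compared for events with at least 10 isoform-specific reads (reads that fit only 1 of the 2 forms) in each library. This held for 4 of the 7 events and for 2695 in all. The members just inside and just outside that limit were a TPM3 exon with 10 such reads in its shallowest library and a TPM1 exon with 2. Reads of the whole event were compared for the 5 events of these genes listed in all 12 libraries, of 4992.

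The cells were MCF10A, a non-tumorigenic line of human breast epithelium, in 3 stable derivatives. One carried the empty MSCV vector, one carried wild-type TIP60 that the siRNA does not target (*WT-TIP60), and one carried a resistant TIP60 without catalytic activity (labelled *KD-TIP60, a dead enzyme and not a knockdown). TIP60, encoded by KAT5, is a lysine acetyltransferase. Each derivative received TIP60 siRNA or control siRNA, and RNA was taken 72 h after transfection, with 2 libraries in each of the 6 groups. Whether a derivative was 1 clone or a pool, and whether replicates were separate cultures, was not stated, so the p-values measure the spread between these libraries, which may be technical.

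Contractile force in an epithelial cell is made by myosin II pulling on actin filaments. Formins such as DIAPH1 nucleate and extend unbranched filaments. Tropomyosins are coiled-coil dimers that lie along the filament and set which myosins and regulators can bind it, and their genes make many isoforms by alternative promoters and exons. MPRIP binds actin filaments and the targeting subunit of myosin phosphatase, the enzyme that removes the activating phosphate from the myosin light chain.

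Exon sequences that the results turn on were read from GENCODE release 29 transcripts (GRCh38, the same assembly as hg38) 5′ to 3′ on the gene's strand. The DIAPH1 exon (ENSG00000131504.16, chr5:141588224-141588250, minus strand) has 27 bases, so that skipping keeps the reading frame. It was annotated in 5 transcripts, fully coding in 4 of them, and 2 transcripts skip it. It is shown in capitals between the flanking 24 bases on each side.
DIAPH1 with the exon: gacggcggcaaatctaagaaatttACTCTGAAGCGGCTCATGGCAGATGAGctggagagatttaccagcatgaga
DIAPH1 without it: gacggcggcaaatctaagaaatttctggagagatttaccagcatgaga

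The MPRIP exon (ENSG00000133030.20, chr17:17180607-17180669, plus strand) has 63 bases and ends the protein. In both transcripts that carry it, 30 coding bases are followed by a stop codon inside the exon, shown here in capitals, and in the 5 transcripts that skip it the last exon adds 69 coding bases instead. The 2 forms thus differ in the C-terminal end of the protein.
MPRIP coding bases of the exon (chr17:17180607-17180639): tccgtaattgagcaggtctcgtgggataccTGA

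The TPM3 exon (ENSG00000143549.19, minus strand of chromosome 1) has 79 bases, not a multiple of 3, so its use shifts the frame of what follows. It is one of the alternative exons for the C-terminal end of tropomyosin 3. In the 2 transcripts that carry it, 0 or 1 coding base followed in the last exon of the event, against 80 in the 7 coding transcripts that skip it, of 12 that skip it in all. TPM3 has 8 annotated pseudogenes, MPRIP has 1 and the other two have 0, so TPM3 reads in particular could be shared with near copies.

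TPM1 (ENSG00000140416.20, plus strand of chromosome 15) had 2 events on neighbouring coding exons of 126 bases each, at chr15:63043706-63043831 and chr15:63044027-63044152. These are known as a mutually exclusive pair within the part of the gene that long tropomyosin 1 isoforms carry, the first being typical of smooth muscle. In the annotation 4 transcripts carried the first exon, 7 carried the second and 1 carried both. The exons match at 62 of 126 positions (49.2%) and differ in GC content, 69.8% in the first and 50.8% in the second. Both exons are shown whole, in capitals, because the reads below come almost wholly from the second.
TPM1 first exon: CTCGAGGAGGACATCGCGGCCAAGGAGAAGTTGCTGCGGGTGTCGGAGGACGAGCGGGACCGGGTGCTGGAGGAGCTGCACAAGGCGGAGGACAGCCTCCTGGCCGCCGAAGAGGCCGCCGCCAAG
TPM1 second exon: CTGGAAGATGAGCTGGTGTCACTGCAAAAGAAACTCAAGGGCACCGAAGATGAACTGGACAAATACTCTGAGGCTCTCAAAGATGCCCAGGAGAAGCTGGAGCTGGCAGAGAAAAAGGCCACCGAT

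The libraries numbered 1 and 2 stood apart. Those numbered 1 held 1983221 to 2280488 event reads (reads fitting at least 1 form of an event) and a median of 21 to 27 isoform-specific reads an event, against 1277953 to 1566296 and 13 to 17 in those numbered 2. Both sets held all 6 groups. KAT5 reads that fit only the form with its 156-nt exon gave 0 to 3.947 reads per 1000000 event reads of the library (RPM) with TIP60 siRNA, against 5.314 to 17.22 RPM with control siRNA, with a lower value in each of 6 pairs of libraries that share a line and a number. The form without that exon was at 76.8 to 2291 RPM in the wild-type line and at 28.17 to 987.7 RPM in the dead line. In both, the libraries numbered 2 lay far below those numbered 1, against 0 to 8.379 RPM in the empty-vector line. For each siRNA and number the dead line lay below the wild-type line, as with 987.7 against 2291 RPM under control siRNA in number 1. The part of this difference in the comparisons of these lines below was not tested. Of the epithelial markers, 5 of 12 had an event in all libraries (CDH1, ESRP1, ITGB4, LAMA3 and TP63), with summed levels of 2668 to 4531 RPM with TIP60 siRNA and 2445 to 4050 RPM with control siRNA. Of 8 mesenchymal markers only FN1 had one, at 34.06 to 2469 RPM with TIP60 siRNA and 21.26 to 816 RPM with control siRNA, and none of 4 immune markers had any event. The part of FN1 in the results below was not tested.

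The 4 genes were chosen by their inclusion and event-read differences between TIP60 siRNA and control siRNA in these libraries, so the siRNA differences are given as a description. Counts of members past the threshold of a fit are printed beside the share of all events past it, and nothing about the members is read from them. Inclusion was lower in all 6 TIP60-siRNA libraries than in any control library for 3 of the 4 exons compared, namely those of DIAPH1, MPRIP and the 79-nt exon of TPM3. This held for 2.6% of all 2695 exons. No member was higher in all 6, against 0.445% of all exons. Counted within pairs of the same line and number, the same 3 exons were lower in 6 of 6, beside 9.46% of all exons.

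**Figure D1:**
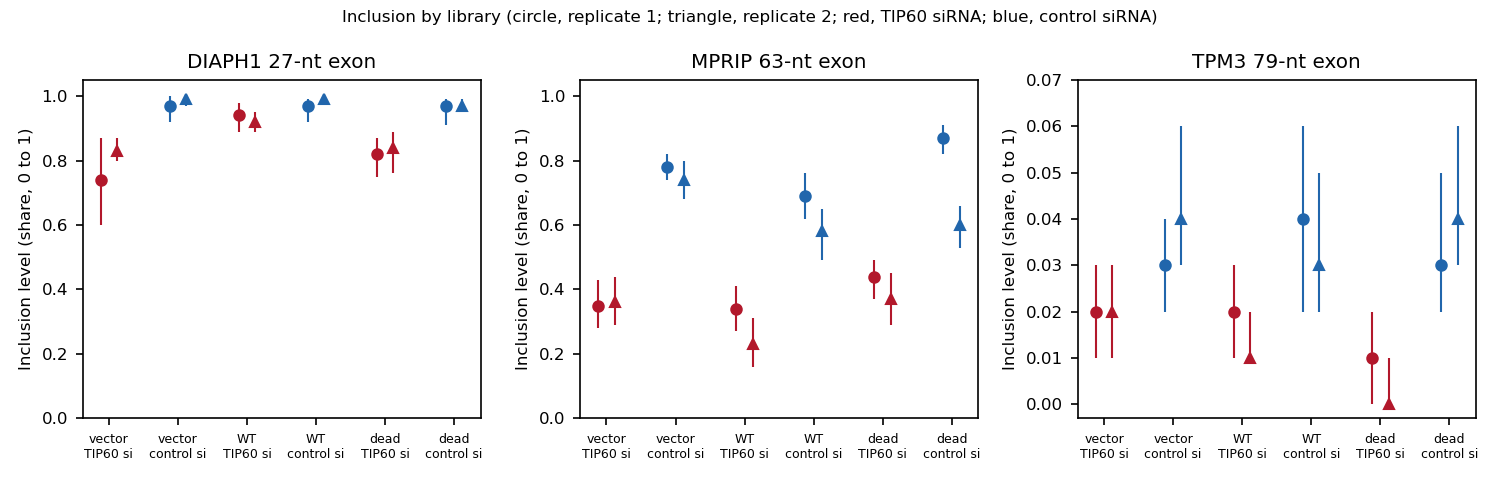
Inclusion level (vertical axis, share from 0 to 1) in each library by line and siRNA, with the interval the files give as a vertical line; the TPM3 panel has its own scale. In each panel the TIP60-siRNA libraries lie below the control-siRNA libraries, with DIAPH1 nearest to its controls in the wild-type line.

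In DIAPH1 most transcripts kept the 27-nt exon under either siRNA, and the share that skipped it was larger with TIP60 siRNA. Inclusion was 0.74 and 0.83 with TIP60 siRNA in the empty-vector line, against 0.97 and 0.99 with control siRNA. In the wild-type line it was 0.94 and 0.92 with TIP60 siRNA, against 0.97 and 0.99 with control siRNA. In the catalytically dead line it was 0.82 and 0.84 with TIP60 siRNA, against 0.97 in both control libraries. The pairwise differences ran from -0.23 to -0.03, and the smallest in size, -0.03, was in the wild-type line. Over the 3 lines the TIP60-siRNA libraries averaged 0.848 ± 0.073 and the control libraries 0.977 ± 0.01 (SD, n = 6 each), a difference of -0.13 ± 0.016 (limma, SE).

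The shift in DIAPH1 was seen in the reads of the form without the exon. These numbered 9 and 68 with TIP60 siRNA in the empty-vector line, against 1 and 3 with control siRNA. They numbered 5 and 24 with TIP60 siRNA in the wild-type line, against 1 and 1 with control siRNA. In the dead line they numbered 29 and 18 with TIP60 siRNA, against 1 and 6 with control siRNA. Skipping reads were thus few in every control library. Summed over 6 libraries each, they made 14.5 RPM with TIP60 siRNA and 1.22 RPM with control siRNA, a ratio of 11.9 with a 95% interval of 6.75 to 22.8 (exact, counting error only). Reads of the form with the exon summed to 120.3 RPM with TIP60 siRNA and 116.9 RPM with control siRNA, a ratio of 1.03 (0.951 to 1.11). Their pairwise ratio was below 1 in 2 pairs and above 1 in 4.

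Cells of all 3 lines used the shorter C-terminal end of MPRIP in most transcripts under control siRNA, and in the smaller share under TIP60 siRNA. Inclusion of the 63-nt exon was 0.35 and 0.36 with TIP60 siRNA in the empty-vector line, against 0.78 and 0.74 with control siRNA. In the wild-type line it was 0.34 and 0.23 with TIP60 siRNA, against 0.69 and 0.58 with control siRNA. In the dead line it was 0.44 and 0.37 with TIP60 siRNA, against 0.87 and 0.6 with control siRNA. No TIP60-siRNA library exceeded 0.44 and no control library lay under 0.58, although the control libraries of the dead line were far apart. The averages were 0.348 ± 0.068 with TIP60 siRNA and 0.71 ± 0.11 with control siRNA (SD, n = 6 each), a difference of -0.36 ± 0.05 (SE). Of the 2695 exons, 5 had a lower averaged difference than this exon and 118 a lower one than that of DIAPH1.

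In MPRIP both forms differed in read number. Reads of the form with the exon were at 28.2 and 50.79 RPM with TIP60 siRNA in the empty-vector line, against 140.1 and 121.3 RPM with control siRNA. In the wild-type line they were at 31.09 and 18.7 RPM with TIP60 siRNA, against 69.08 and 69.09 RPM with control siRNA, and in the dead line at 56.13 and 39.91 RPM against 116.9 and 81.08 RPM. The form with the exon had pairwise ratios of 0.201 to 0.492. The form without the exon had pairwise ratios of 1.19 to 3.8 and a median of 1.52. Its lowest control value, 14.91 RPM, came from the dead line replicate 1, the library with the highest inclusion.

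**Figure D2:**
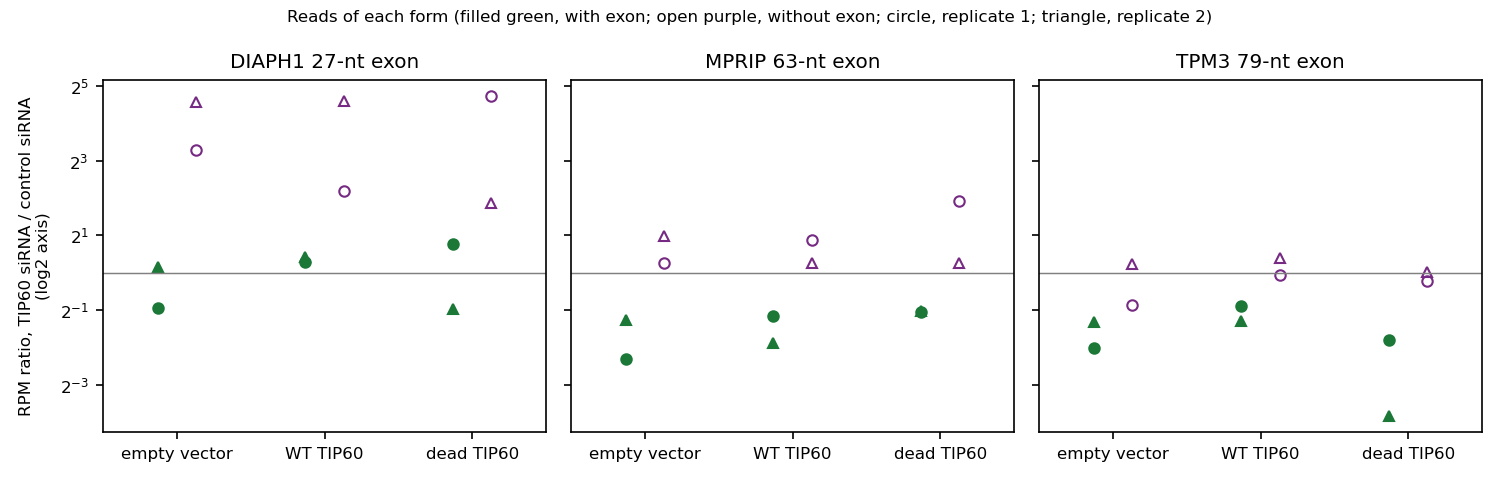
Ratio of RPM, TIP60 siRNA over control siRNA (vertical axis, log2 scale), for the form with the exon (filled) and without it (open), in each same-number pair of libraries by line. Skipping reads of DIAPH1, reads without the exon of MPRIP, and the opposite move of the MPRIP and TPM3 forms with the exon stand on 1 side of the line at 1 in all 6 pairs; DIAPH1 ratios rest on 1 to 6 control reads.

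The 79-nt exon of TPM3 was rare throughout, at 0 to 0.02 of transcripts with TIP60 siRNA and 0.03 to 0.04 with control siRNA. The deposited levels are rounded to 2 decimals, so the reads show more. Reads of the form with the exon numbered 9 and 12 with TIP60 siRNA in the empty-vector line, against 39 and 31 with control siRNA. They numbered 12 and 9 with TIP60 siRNA in the wild-type line, against 20 and 22 with control siRNA, and 7 and 2 in the dead line, against 22 and 35. Such reads thus numbered 2 to 12 a library with TIP60 siRNA and 20 to 39 with control siRNA. Summed, they made 4.83 RPM with TIP60 siRNA and 15.9 RPM with control siRNA, a ratio of 0.305 (95% interval 0.218 to 0.419, counting error only). Reads of the common form without the exon summed to 240.3 RPM with TIP60 siRNA and 256.2 RPM with control siRNA, and their pairwise ratio was below 1 in 3 pairs and above 1 in 3. The averaged inclusion difference was -0.022 ± 0.0043 (SE).

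The other two exons of TPM3 and DIAPH1 gave no measure of skipping. The 63-nt exon of TPM3 (chr1:154170649-154170711), which 15 annotated transcripts carry and 1 skips, had 93 to 250 reads of the form with the exon in the libraries numbered 1 and 10 to 29 in those numbered 2. It had 0 reads of the form without it in all 12 libraries. Its deposited inclusion was nevertheless 0.94 to 0.98 in libraries numbered 1 and 0.34 to 0.63 in those numbered 2, whose intervals were 0.81 to 0.89 wide. A 9-nt exon of DIAPH1 (chr5:141550499-141550507) was listed only in libraries numbered 1, with 4 to 17 event reads, none of them isoform-specific. No direction is drawn for either exon.

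In the limma fit over all 2695 exons, 2.15% were past an adjusted p of 0.05 for the siRNA difference averaged over the lines (7 higher and 51 lower), and they included 2 of the 4 member exons, MPRIP and DIAPH1. With the replicate number as a block it was 4.27% of all exons and 3 members, the 79-nt exon of TPM3 added. Since the members were picked with this comparison in view, these counts test nothing about them. When 1 library was left out, the members' calls were mostly lost, while their differences kept their sign and became somewhat larger or smaller. The DIAPH1 difference lay between -0.14 and -0.11 and that of MPRIP between -0.41 and -0.32. DIAPH1 was past the threshold in 3 of the 12 such fits, those without empty-vector TIP60 siRNA replicate 1 or 2 or dead-line TIP60 siRNA replicate 2, and MPRIP in 2 of 12, those without either dead-line control library. Within a single line 0 of 4 members were past it, beside 0.0371% of all exons in the empty-vector and the dead line and 0% in the wild-type line (178, 182 and 116 exons at an unadjusted p under 0.05). With the block it was again 0 of 4 in each, beside 0.148% in the empty-vector, 0.371% in the dead and 0.148% in the wild-type line. Of all exons 64.7% had a lower averaged inclusion with TIP60 siRNA, and the median difference over all exons was -0.0067.

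**Figure D3:**
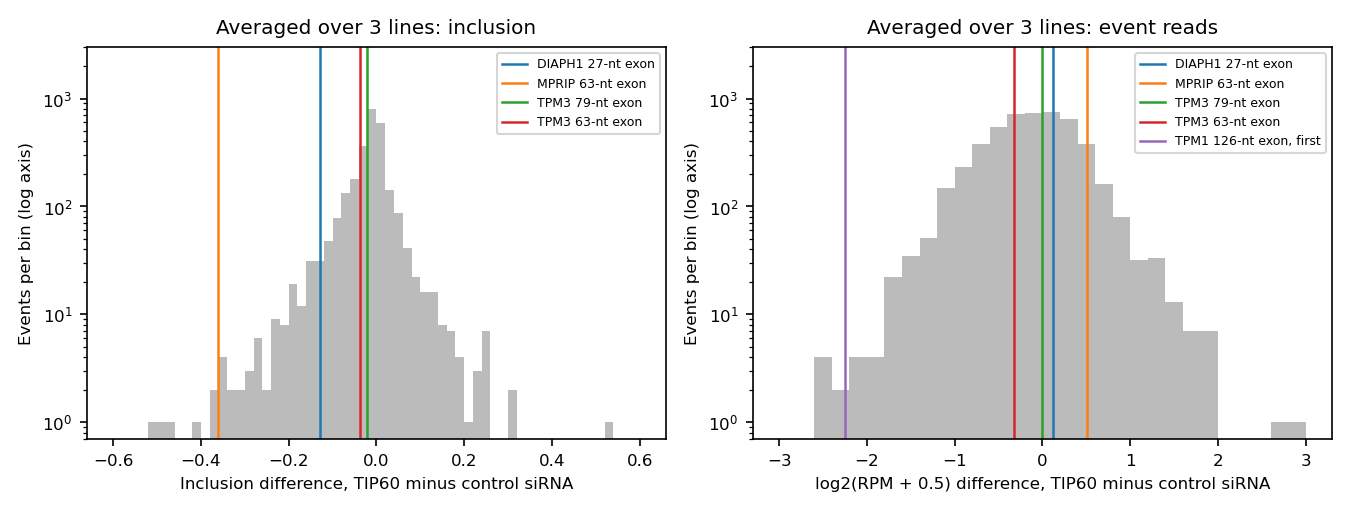
Number of events per bin (vertical axis, log scale) by their averaged difference, TIP60 minus control siRNA, in inclusion (left, 2695 exons) and in log2 event reads (right, 4992 events), with the members as lines. MPRIP at -0.36 lies at the low end of inclusion and TPM1 at -2.24 at the low end of event reads; the TPM3 exons lie within the bulk of inclusion.

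The resistant constructs ask whether TIP60 that the siRNA does not reach, with or without its catalytic activity, goes with another siRNA effect. The DIAPH1 siRNA difference was -0.195 ± 0.027 in the empty-vector line, -0.05 ± 0.027 in the wild-type line and -0.14 ± 0.027 in the dead line (SE, limma). These are the differences the genes were chosen by, so the p-values between lines are not independent of the choice. The dead line minus the wild-type line came to -0.09 ± 0.039 (unadjusted p = 0.0534, adjusted p = 1 by limma). The wild-type minus the empty-vector line came to 0.145 ± 0.039 (unadjusted p = 0.00727, adjusted p = 1 by limma). The dead line minus the empty-vector line came to 0.055 ± 0.039 (adjusted p = 1 by limma). None of these differences passed the correction. With the replicate block the first was -0.09 ± 0.035 (unadjusted p = 0.0405 by limma). The second was then 0.145 ± 0.035 (unadjusted p = 0.00563 by limma). On shares of isoform-specific reads the first was -0.083 ± 0.031 (unadjusted p = 0.0357 by limma). The second was 0.118 ± 0.031 on that scale (unadjusted p = 0.00815 by limma). These did not pass the correction either. The first was -0.55 ± 1.11 with limma on log2 odds of reads, and it turned round in a quasi-binomial fit to the isoform-specific reads, to 0.275 ± 1.215 log2 odds. The second kept its sign but was 1.4 ± 1.11 on log2 odds (unadjusted p = 0.235 by limma). In the quasi-binomial fit the second was 0.834 ± 1.295 log2 odds, less than its SE (unadjusted p = 0.543 by that fit). The control libraries held 1 to 6 skipping reads each, and their part in this was not tested.

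For MPRIP the siRNA difference was -0.405 ± 0.086 in the empty-vector line, -0.35 ± 0.086 in the wild-type line and -0.33 ± 0.086 in the dead line. The wild-type minus the empty-vector line was 0.055 ± 0.12, the dead minus the empty-vector line 0.075 ± 0.12 and the dead minus the wild-type line 0.02 ± 0.12 (SE, limma adjusted p = 1 each). The last had no stable sign, being -0.0404 on log2 odds and -0.115 to 0.155 when single libraries were left out. For the 79-nt exon of TPM3 the line differences were -0.005, -0.015 and -0.01 in the same order, each ± 0.011 (adjusted p = 1 each by limma), and the first was above 0 on read shares and on the odds scale. In all 3 comparisons of lines 0 of 2695 exons passed in limma, with 46, 36 and 32 at an unadjusted p under 0.05 and 0 passing with the replicate block.

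Averaged over both siRNAs, no exon of these genes passed a comparison of constructs, beside 0% of all exons (59, 48 and 58 at an unadjusted p under 0.05 for wild-type against empty vector, dead against empty vector and dead against wild-type). The DIAPH1 exon was 0.072 ± 0.019 higher in the wild-type than in the empty-vector line (unadjusted p = 0.00727, adjusted p = 1 by limma) and -0.055 ± 0.019 in the dead minus the wild-type line (unadjusted p = 0.0252, adjusted p = 1). Both came wholly or mostly from the TIP60-siRNA libraries. Under control siRNA the mean was 0.98 in the wild-type and the empty-vector line and 0.97 in the dead line. With TIP60 siRNA it was 0.785 in the empty-vector, 0.93 in the wild-type and 0.83 in the dead line. The wild-type against empty-vector value thus restates the siRNA difference between these lines. The dead against wild-type value does so for the most part, and neither is a separate result. Both rest on values the genes were chosen by, so their p-values are not independent of the choice. In the quasi-binomial fit the wild-type against empty-vector value was 1.118 ± 0.648 log2 odds (unadjusted p = 0.135 by that fit). The dead against wild-type value was -1.677 ± 0.608 log2 odds (unadjusted p = 0.0328 by that fit). The MPRIP exon was at -0.097 ± 0.061 in the wild-type minus the empty-vector line and at 0.11 ± 0.061 in the dead minus the wild-type line (adjusted p = 1 each by limma). With the replicate block the SE of each was 0.043 (unadjusted p = 0.065 and 0.0438, adjusted p = 0.806 and 0.991 by limma).

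TPM1 had too few isoform-specific reads for a comparison of inclusion, and it is described by its event reads. At its first event the event reads were at 7.049 and 2.274 RPM with TIP60 siRNA in the empty-vector line, against 44.22 and 16.07 RPM with control siRNA. In the wild-type line they were at 10.52 and 3.339 RPM with TIP60 siRNA, against 47.4 and 12.62 RPM with control siRNA. In the dead line they were at 12.72 and 8.608 RPM with TIP60 siRNA, against 84.63 and 30.01 RPM with control siRNA. Each TIP60-siRNA library lay below its control of the same number, and within each set of numbers all 3 lay below all 3, but over both sets the ranges of 2.274 to 12.72 RPM with TIP60 siRNA and 12.62 to 84.63 RPM with control siRNA overlapped slightly.

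The TPM1 values rest on 3 to 29 event reads a library with TIP60 siRNA and 19 to 176 with control siRNA. Summed, 85 reads with TIP60 siRNA and 453 with control siRNA gave a ratio of 0.189 (95% interval 0.149 to 0.239, counting error only). The fitted difference, on the log2(RPM + 0.5) scale, which understates the change of low values, was -2.24 ± 0.57 averaged over the lines, -2.57 in the empty-vector, -1.95 in the wild-type and -2.22 in the dead line. With the replicate number as a block, the SE of the averaged difference was 0.24. Of 4992 events, 5 had a lower averaged value. The median over all events was -0.0997, and 0.009 after median-ratio scaling, under which TPM1 was at -2.14. In bulk RNA, fewer cells with a transcript and less of it per cell cannot be told apart.

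Nearly all isoform-specific reads of the first TPM1 event came from the form that skips its cassette exon, with 0 to 2 reads a library from the form with it. The second TPM1 event, listed in 11 libraries, mirrored this, with 2 to 109 reads of the form with its exon and 0 to 2 of the form without. MCF10A cells thus used the second exon of the pair in almost all reads that told the forms apart, under either siRNA. The event reads of the second event were at 11.08 and 1.516 RPM with TIP60 siRNA in the empty-vector line, against 31.19 and 6.575 RPM with control siRNA. They were at 12.8 RPM in the 1 listed wild-type library with TIP60 siRNA, against 42.86 and 5.314 RPM with control siRNA, and at 11.84 and 2.348 RPM in the dead line, against 61.07 and 7.023 RPM. They were lower in 5 of 5 pairs, with ratios of 0.194 to 0.355. The 2 events share an exon and so are not independent. Reads that fit neither form of an event had ratios of 0.132 to 0.292 at the first event, in the range of its event reads, and of 0.343 to 0.564 at the second. Where these reads come from was not tested. The deposited inclusion differed within pairs by 0.02 to 0.25 at the first event and by -0.5 to -0.11 at the second. It came from few reads, with intervals up to 0.77 wide, and the rarer form had 0 to 2 reads a library. No direction is drawn from it.

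**Figure D4:**
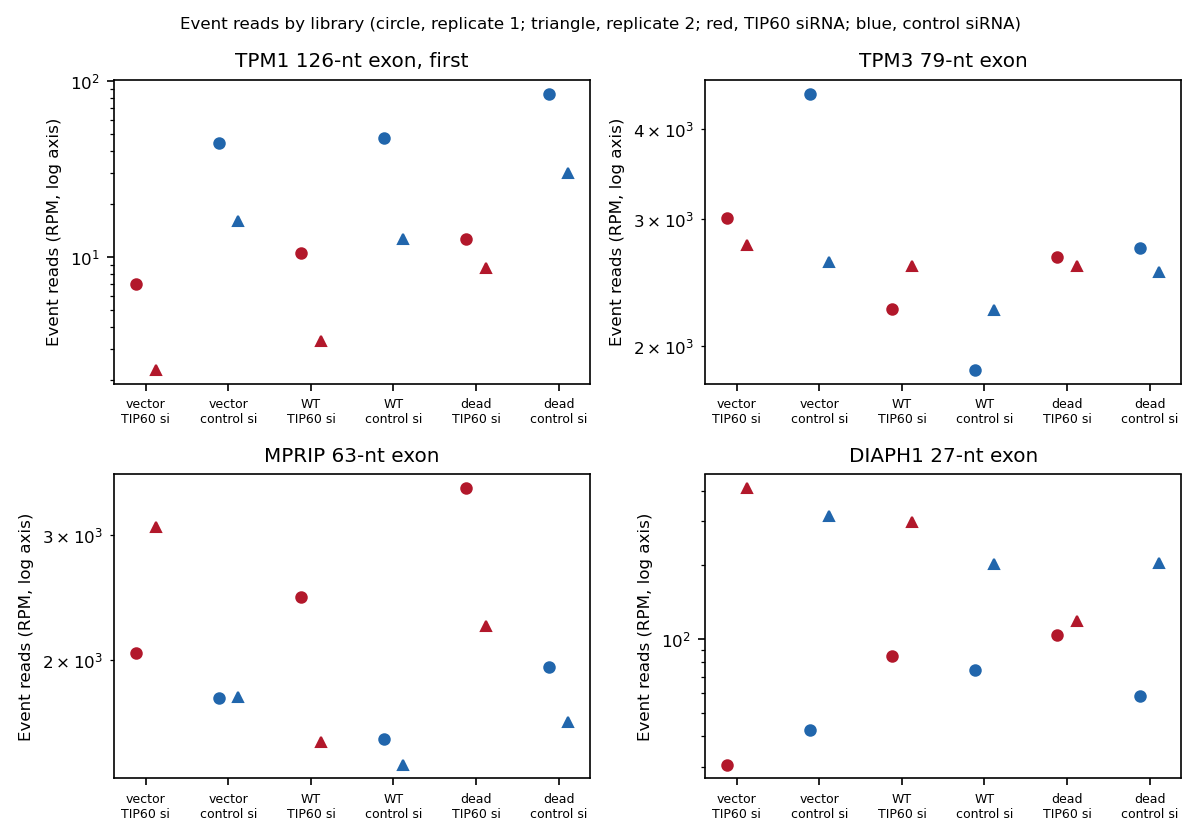
Event reads in RPM (vertical axis, log scale) in each library by line and siRNA for 1 event of each gene. The first TPM1 event lies lower with TIP60 siRNA in each same-number pair, MPRIP lies higher in each, and TPM3 and DIAPH1 show both directions.

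The event reads of the other genes did not share the pattern of TPM1. MPRIP event reads, most of which fit both forms, were at 2042 and 3082 RPM with TIP60 siRNA in the empty-vector line, against 1768 and 1773 RPM with control siRNA. They were at 2450 and 1528 RPM with TIP60 siRNA in the wild-type line, against 1543 and 1422 RPM with control siRNA, and at 3493 and 2233 RPM in the dead line, against 1952 and 1631 RPM. MPRIP was thus higher in 6 of 6 pairs, by ratios of 1.07 to 1.79, with a fitted difference of 0.51 ± 0.2 on the log2 scale, or 0.62 after median-ratio scaling. Event reads of the 79-nt TPM3 exon had ratios of 0.672 to 1.22 and those of the 27-nt DIAPH1 exon 0.582 to 1.78, each lower in 2 pairs and higher in 4. Among all 4992 events, 18.7% were lower and 12.1% higher in 6 of 6 pairs. Over both replicate numbers together, 0 of 5 member events were lower in all 6 TIP60-siRNA libraries than in any control library, beside 2.42% of all events, and 0 were higher, beside 1.26%.

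In the limma fit to event reads 0.741% of all events and 0 of 5 member events were past the threshold for the averaged siRNA difference. With the replicate block it was 16.8% of all events, TPM1 and MPRIP among them. Within lines it was 3.08% in the empty-vector and 2.84% in the dead line, each with TPM1 as the only member. The genes were chosen with these differences in view too, so these counts test nothing about them. Between constructs 0 of 5 passed with or without the block, beside 0% of all events without it (48, 18 and 59 at an unadjusted p under 0.05). TPM1 was 1.08 ± 0.7 higher in the dead than in the empty-vector line on the log2 scale and the TPM3 event of the 79-nt exon was -0.5 ± 0.2 in the wild-type minus the empty-vector line (adjusted p = 1 each by limma). With the block, the TPM1 value was 1.08 ± 0.29 (unadjusted p = 0.00413, adjusted p = 0.876 by limma). TPM1 in the dead minus the wild-type line was then 0.89 ± 0.29 (unadjusted p = 0.0125, adjusted p = 0.522 by limma).

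The 4 exons compared were each shorter than the median exon and differed in GC content, and their sequences were not compared with each other. Their lengths were 27, 63, 63 and 79 bases, where 1.41% of the 2695 exons had at most 27 bases, 11.8% at most 63, and the median was 126. The lengths of 3 were multiples of 3, as for 56.1% of all. GC content was 55.6% in DIAPH1, 58.7% in MPRIP, 50.6% in the 79-nt and 30.2% in the 63-nt exon of TPM3, against a median of 51% over 2525 exons with a sequence. Over the 12 libraries Pearson r between DIAPH1, MPRIP and the 79-nt TPM3 exon was 0.689 to 0.753, with the mean of each replicate number taken out. The 63-nt TPM3 exon had r of -0.0648 to 0.2335 with these 3. The r values all contain the same libraries and the siRNA difference by which the genes were chosen, so no likeness is read from them.

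The exons of other genes with the inclusion pattern most like that of MPRIP over the same 12 values were in the kinase AKT2 (chr19:40236257-40236385, r = 0.95), the amyloid precursor APP (chr21:26000015-26000182, r = 0.945) and the calcium sensor HPCAL1 (chr2:10408562-10408734, r = 0.945). Those most like that of DIAPH1 were in the phosphatidylinositol synthase CDIPT (chr16:29859442-29859523, r = 0.943), on an alternate contig of chromosome 6 without a gene name (r = 0.939), and in the integrin ITGA6 (chr2:172501772-172501901, r = 0.926). AKT2 inclusion averaged 0.823 with TIP60 siRNA and 0.942 with control siRNA, and ITGA6 0.707 with TIP60 siRNA and 0.923 with control siRNA. For TPM3 the rule took the 63-nt exon, whose estimates follow the replicate number, a difference taken out before r was computed. Its nearest patterns were in ARIH2 (r = 0.938), EIF4G1 (r = -0.906) and SMARCA4 (r = 0.904), with averaged siRNA differences of at most 0.015 in size. Since no library held reads of the form without this TPM3 exon, no likeness is read from these values.

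Of 76 other actomyosin genes, 16 had 24 exons that could be compared for inclusion. One of the 24 passed limma for the averaged siRNA difference, lower, and 0 were higher, beside 2.15% of all exons. It was the 45-nt exon of MYL6, the essential light chain of non-muscle myosin II (chr12:56160626-56160670), at 0.268 ± 0.051 with TIP60 siRNA and 0.773 ± 0.077 with control siRNA (SD, n = 6 each; limma adjusted p = 0.00394). Next by p were a 144-nt exon of MYL6 (difference -0.027, adjusted p = 0.0533 by limma) and an exon of ARHGEF1, a guanine nucleotide exchange factor (0.572 with TIP60 siRNA and 0.862 with control siRNA, adjusted p = 0.121 by limma), and both passed with the replicate block (adjusted p = 0.0164 and 0.0354 by limma), under which 3 of the 24 passed, beside 4.27% of all exons. The median difference was -0.0042 over the 24 exons and -0.0067 over all exons. None of the 24 passed between constructs or between lines. The list of 76 genes was chosen with earlier results of these data known. Its counts and p-values, here and for event reads, are therefore not an independent test of these genes.

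In event reads, 24 of the 76 genes had 39 events, and 0 passed limma without the block, the smallest p being those of DSTN, an actin-severing protein (-0.6, adjusted p = 0.211), the formin FMNL2 (0.51, 0.297) and the unconventional myosin MYO18A (-1.03, 0.432). With the block 6 of the 39 passed, a share close to the 16.8% of all events. Of these, 2 were higher, in FMNL2 and the focal adhesion protein PXN (0.77), and 4 were lower, in DSTN, MYO18A, the actin-binding protein ANLN (-1.43) and the non-muscle myosin heavy chain MYH10 (-0.88). DSTN averaged 481.9 RPM with TIP60 siRNA and 728.6 RPM with control siRNA, and ANLN 28.89 RPM with TIP60 siRNA and 78.65 RPM with control siRNA. The median over the 39 events was -0.18, against -0.0997 over all events. The TPM1 difference of -2.24 lay below that of each of these named events.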

How the data were processed

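The aligner was STAR and the genome build hg38, per the submitters' processing notes, with no version of either given there. Per the file headers, the deposited inclusion level is a fraction, the posterior mean of MISO from 0 to 1 with interval bounds, and the deposited tables also hold raw numbers of reads fitting 1, both or neither form. Inclusion is a share within an event; event reads cover an event's exons, not a gene.

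From these, limma 3.58.1 (R 4.3.3) fitted 1 factor of 6 groups to 12 libraries, with robust variance moderation and a trend on read number. It took inclusion as deposited, and event reads as log2(RPM + 0.5) with RPM per 1000000 event reads. Two-sided p-values were adjusted by Benjamini-Hochberg over all events. The fits were tested on simulated data drawn without any effect of the replicate number. That test thus does not show how the fit without a block behaves where libraries of the same number deviate together.

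Samples with the same replicate number deviated together (r of 0.706 to 0.779 in inclusion and 0.583 to 0.896 in event reads, all 15 of 15 group pairs), so the numbers pair the samples, on the evidence of the data; the fit with that block was an alternative, with read minimums, log2 odds, a quasi-binomial fit, pseudocounts, scaling and left-out libraries. Exons, sequences and names came from GENCODE 29. Every event of the 4 genes was counted and those with the read minimum named; the other actomyosin genes named were those past the threshold and the 3 of smallest p, and like patterns were the 3 of largest r for the exon of each gene with the largest averaged difference. Members and lists were chosen with earlier results of these data known. The sequence of the 79-nt exon of TPM3 is not reported here.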

Additional observations from a re-analysis of the deposited data

How the results depend on the processing

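The number of member exons past the threshold for the averaged inclusion difference, 2 as fitted, was 1 on log2 odds of reads, 0 in the quasi-binomial fit with or without the replicate block, and 0 to 1 when single libraries were left out. When single libraries were left out it was 0 to 1 in the empty-vector and in the dead line, each 0 as fitted (lowest adjusted p of DIAPH1 by limma 0.0133 and 0.0386). For event reads, 0 as fitted, the replicate block gave 2 averaged, 1 in the empty-vector line and 1 in the dead line, and for the other comparisons it changed no call of a member except the 79-nt exon of TPM3. Exons past the threshold among all events numbered 115 with the block, 0 in the quasi-binomial fit, 19 with both and 7 to 34 without single libraries, against 58. For event reads they numbered 837 with the block, 86 with at least 20 reads, 16 with median-ratio scaling and 0 to 11 without single libraries, against 37. Within lines, inclusion gave 0 to 12 over the alternatives, against 1, 0 and 1 in the empty-vector, wild-type and dead lines, and the block gave 154, 1 and 142 for event reads, against 0 in each. The share of isoform-specific reads in place of the deposited level gave 2 to 7 between constructs or lines, against 0, and the block gave 1 event for event reads of the dead and of the wild-type line against empty vector.

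DIAPH1 inclusion in the dead minus the empty-vector line, 0.018 as fitted, was -0.11 on log2 odds, -0.56 in the quasi-binomial fit and -0.51 with the block, and -0.005 to 0.04 without single libraries. Its siRNA difference in the dead minus the wild-type line was 0.28 in the quasi-binomial fit and 0.34 with the block (log2 odds). That of MPRIP in the same comparison was -0.0404 on log2 odds, -0.00013 in the quasi-binomial fit and -0.0029 with the block, and -0.115 to 0.155 without single libraries. For the 79-nt TPM3 exon the wild-type minus the empty-vector line was 0.0802 on log2 odds, 0.13 in the quasi-binomial fit, 0.088 with the block and 0.0073 on read shares. That of MPRIP in the dead minus the empty-vector line was -0.06 to 0.21 without single libraries, and TPM1 event reads in the wild-type minus the empty-vector line were -0.27 to 0.66. The cause was not tested. The inclusion siRNA differences of DIAPH1, MPRIP and the 79-nt TPM3 exon and the event-read siRNA difference of TPM1 kept their sign in the alternatives run, including replicate 1 alone and replicate 2 alone, which were added after the data were seen. The event-read siRNA difference turned with median-ratio scaling for the 79-nt TPM3 exon (averaged 0.11, dead line 0.14) and for DIAPH1 in the empty-vector line (0.072). Depth limits DIAPH1 skipping (1 to 6 control reads), the 79-nt TPM3 exon (2 to 12 reads with TIP60 siRNA) and TPM1 (3 to 29).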
